A study of Mus musculus with 12 samples.

Results

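The genes described here are 9 matrix metalloproteinase (Mmp) genes, Mmp2, Mmp3, Mmp7, Mmp9, Mmp10, Mmp11, Mmp13, Mmp14 and Mmp15, and the gene of the inhibitor Timp1. They were taken as a list of 10 gene symbols out of 54146 gene identifiers in the count tables, and 7 of the 10 had enough reads to be tested among 14283 genes. The data are RNA sequencing counts of 12 libraries of the BMEL line, short for bipotential mouse embryonic liver. These liver progenitors were isolated from a mouse with floxed Cdk8 alleles, so that all 4 groups come from floxed Cdk8 cells. Each group had 3 libraries: untransformed wild type cells, cells transformed with H-RasG12V (an H-Ras protein held in its active state), Cdk8 -/- cells with H-RasG12V and Cdk19 -/- cells with H-RasG12V. All were growing exponentially on collagen in medium with serum, insulin, IGFII and EGF, and the labels name neither clones nor separate cultures, so the spread behind every p-value is that of these libraries and could be technical. Cdk8 and Cdk19 are the alternative kinases of the Mediator kinase module.

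Matrix metalloproteinases are zinc endopeptidases that cut proteins of the extracellular matrix and the cell surface. Most are secreted as inactive proenzymes, while the membrane-type enzymes Mmp14 and Mmp15 stay on the cell surface. The collagenase Mmp13 cuts fibrillar collagen, the stromelysins Mmp3 and Mmp10 have broad substrates and can activate other proenzymes, Mmp2 and Mmp9 are gelatinases, Mmp7 is matrilysin and Mmp11 is stromelysin-3. Tissue inhibitors of metalloproteinases such as Timp1 bind the active enzymes and block them. In liver, these enzymes and inhibitors are known for their part in fibrosis, repair and tumour invasion, and stellate cells, macrophages and neutrophils are among their usual sources. Transcript counts report neither secretion nor enzyme activity.

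Libraries held 24823560 to 36879661 gene counts. Levels are in CPM, the counts of a gene scaled to a fixed library total, here after TMM scaling, and a level of 3 counts, the floor of a single library, equals 0.0813 to 0.121 CPM. Replicate 3 of the untransformed group and replicate 3 of the RasG12V group stood apart from their own groups: the SD of the log2 CPM difference was 0.586 to 0.704 in pairs with these libraries and 0.367 to 0.414 in the other pairs of replicates. RasG12V replicate 3 also had 313 CPM of Hras against 510 and 537 in its group, and 1.92% mitochondrial counts against 1.18% to 1.54% in the other 11 libraries. Values of the 10 genes that rest on the pair, counts over the gene lists and list genes whose size moves by over 1.5 times are given with and without them, and the part these differences play was not tested. Hras averaged 50.0 CPM in untransformed cells and 422 to 453 CPM in the transformed groups. Cdk8 and Cdk19 averaged 42.8 and 49.8 CPM in their own knockouts against 54.5 and 75.2 CPM in RasG12V, but counts over a whole gene do not check the deleted exons.

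In RasG12V cells, 3 of the 7 tested genes rose against untransformed cells and 1 fell, where 11.9% of all tested genes rose, 11.5% fell and 23.4% were called in either direction (edgeR's quasi-likelihood test, Benjamini-Hochberg adjusted p under 0.05). The genes that rose were the collagenase Mmp13 and the stromelysins Mmp10 and Mmp3. Of these, Mmp3 passed the filter on low counts through the transformed groups, where it is high, so the count of 3 is partly set by the filter. The gene that fell was Mmp15. The median log2 fold change of the 7 was 0.06, beside 0.00 over all tested genes, and the groups were fully separated, with no overlap between libraries, for 4 of the 7, beside 32.3% of all genes. Without both libraries that stood apart the same number of members, 4, was called, where 40% of all genes were.

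Mmp13, a collagenase gene, was read at 18.2, 17.8 and 17.6 CPM in untransformed replicates 1 to 3 and at 286, 291 and 1016 CPM in RasG12V. The untransformed libraries were tight and the RasG12V libraries were not: replicate 3 held 3.52 times the mean of the other 2. The means were 17.9 ± 0.332 and 531 ± 420 CPM (SD, n = 3), and the log2 fold change was 4.89 (SE 0.48, adjusted p = 1.72e-05 by edgeR). Without RasG12V replicate 3 it was 4.02 (adjusted p = 5.45e-07 by edgeR), and without both libraries that stood apart it was 3.98 (SE 0.34, adjusted p = 0.000111 by edgeR), so the size of the rise depended on 1 library and the call did not.

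Mmp10, stromelysin-2, was close to 1 CPM in untransformed cells, at 0.781, 1.24 and 0.865 CPM. In RasG12V it was at 94.8, 85.2 and 163 CPM, and no library of 1 group came near the other. The means were 0.961 ± 0.243 and 114 ± 42.6 CPM (SD, n = 3), a ratio of 119 on 91 and 10102 counts. Its log2 fold change of 6.88 (SE 0.38, adjusted p = 2.74e-07 by edgeR) was the largest of the 7 and stayed at 6.44 without both libraries that stood apart.

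Mmp3, stromelysin-1, was scarce in both groups, with 15 counts over the untransformed libraries and 298 over the RasG12V libraries. Its levels were 0.107, 0.247 and 0.119 CPM against 2.26, 2.09 and 5.58 CPM. RasG12V replicate 3 was again the highest, and the untransformed values rested on 3, 8 and 4 counts, at or near the floor of 3. The log2 fold change was 4.36 (SE 0.52, adjusted p = 7.69e-05 by edgeR), 3.75 without RasG12V replicate 3 and 3.54 without both libraries that stood apart. Of the 50-base windows of Mmp3 transcripts, 8.39% also occur in Mmp10 or the gene Gm15244, and 8.37% of those of Mmp10 occur in Mmp3. Reads in these windows cannot be assigned to either gene with certainty.

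Mmp13, Mmp3 and Mmp10 lie in a cluster of 10 Mmp genes on chromosome 9. In the GRCm38 annotation, Mmp13 occupies 7272514 to 7283331, Mmp3 7445822 to 7455975 and Mmp10 7502352 to 7510240, all on the plus strand, 238 kb from the start of the first to the end of the last. The matrilysin gene Mmp7 closes the cluster at 7692090 to 7699585. The other 6 are Mmp12, Mmp1b, Mmp1a, Mmp8, Mmp27 and Mmp20. The region was examined after the values of the members were seen.

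Promoter sequence is shown for the 3 genes that rose and for Mmp7, which had 0 counts in all 12 libraries, because a pair of motifs recurs in this cluster. Each line gives the 250 bases before the start of the RefSeq transcript (GRCm38.p6, plus strand, 5′ to 3′), with the match to TGANTCA, the core of the AP-1 motif, and the nearest downstream match to the TATA box (TATAAA) in capitals.
Mmp13, chr9:7272264-7272513: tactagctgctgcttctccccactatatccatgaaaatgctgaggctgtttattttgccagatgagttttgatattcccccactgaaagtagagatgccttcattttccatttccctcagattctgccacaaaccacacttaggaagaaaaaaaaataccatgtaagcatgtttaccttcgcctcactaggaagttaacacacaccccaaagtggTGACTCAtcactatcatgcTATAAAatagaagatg
Mmp3, chr9:7445572-7445821: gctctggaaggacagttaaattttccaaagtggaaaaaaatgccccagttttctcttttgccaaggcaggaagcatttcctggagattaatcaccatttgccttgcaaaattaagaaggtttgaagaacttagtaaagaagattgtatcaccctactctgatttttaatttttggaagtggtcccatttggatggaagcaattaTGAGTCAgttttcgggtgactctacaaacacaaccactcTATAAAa
Mmp10, chr9:7502092-7502341: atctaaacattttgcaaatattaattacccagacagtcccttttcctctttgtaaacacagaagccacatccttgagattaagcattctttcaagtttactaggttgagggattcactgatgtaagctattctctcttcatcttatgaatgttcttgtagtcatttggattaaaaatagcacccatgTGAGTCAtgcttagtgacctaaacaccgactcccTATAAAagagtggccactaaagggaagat
Mmp7, chr9:7691840-7692089: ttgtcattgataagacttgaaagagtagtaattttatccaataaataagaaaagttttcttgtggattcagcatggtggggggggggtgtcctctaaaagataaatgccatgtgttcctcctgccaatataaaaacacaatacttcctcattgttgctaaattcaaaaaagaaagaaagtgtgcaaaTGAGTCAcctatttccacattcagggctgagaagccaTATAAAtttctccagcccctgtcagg

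The AP-1 letters began 35 bases before the start in Mmp13, 46 before it in Mmp3 and 63 before it in Mmp10 and Mmp7, and the TATA letters followed 16, 7, 29 and 26 bases before it. The spacing was 12 bases in Mmp13 and 27 to 32 in the other 3. Of 32851 RefSeq windows of this length, 6.75% held TGANTCA and 12.4% held TATAAA, each on either strand. In 0.174%, or 57 windows, TGANTCA was followed by TATAAA on the sense strand, with at most 60 bases between their starts. The 10 cluster genes had 12 windows, since Mmp12 and Mmp7 have an entry for each of 2 starts, and 8 of the 12 held TGANTCA and 7 held the pair (1 each in Mmp13, Mmp1b, Mmp3, Mmp1a, Mmp10, Mmp20 and Mmp7). The other windows of Mmp12 and Mmp7 did not hold TGANTCA. None of the 10 windows of 9 other genes searched, namely the Mmp genes elsewhere in the genome that had an entry and Timp1, had TGANTCA. The core of an ETS motif, AGGAAG, was common, in 29.5% of windows on either strand, and had 2 matches in the Mmp13 window and none in that of Mmp10. A match is a string of letters in a window, not a bound site, and genes with the pair in this cluster include ones with almost no reads. The pair was shown because it recurs in this cluster, and windows of genes of 1 family are not independent. Its counts are therefore a description without a test.

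Within the cluster, reads were uneven. Beside Mmp13, Mmp3 and Mmp10, only Mmp1a, an interstitial collagenase gene, had enough reads to be tested. Mmp1a and Mmp3 passed the filter on low counts through the transformed groups, where they are high, so the 4 tested genes do not stand for the 10 of the cluster. Mmp1a had 0 counts in the untransformed libraries, and 36, 38 and 22 counts over the RasG12V, Cdk8 knockout and Cdk19 knockout libraries. Against a floor of 3 counts over the untransformed group, its level was at least 13.0-fold higher in RasG12V, 12.1-fold higher in the Cdk8 knockout and 7.86-fold higher in the Cdk19 knockout. The macrophage elastase gene Mmp12 had 34 counts in all 12 libraries, the neutrophil collagenase gene Mmp8 had 33, Mmp1b had 11, Mmp27 had 2 and Mmp20 had 1. The Mmp8 mean was 0.0794 CPM untransformed and 0.0603 CPM with RasG12V, on 7 and 6 counts, the latter all in replicate 3. Mmp12 had 4 counts over the untransformed libraries and 23 over RasG12V, 19 of these in replicate 3. Such counts are too few to read a direction for these genes.

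The genes on either side of the cluster are given as a description. Of 8 protein-coding genes within 500 kb of it, 7 were tested, and their log2 fold changes in RasG12V ran from -0.38 to 0.46. None of the 7 was called higher and 1 was called lower, where 11.9% of all tested genes rose and 11.5% fell. The gene called lower was the apoptosis inhibitor gene Birc2 (log2 fold change -0.38, SE 0.10, adjusted p = 0.0183 by edgeR). Against untransformed cells, Birc2 was also called lower in the Cdk8 and Cdk19 knockouts (-0.57 and -0.56, adjusted p = 0.00147 and 0.00173 by edgeR). Cep126 was called higher in both (0.59 and 0.64, adjusted p = 0.0183 and 0.0116 by edgeR). Yap1, the Hippo pathway coactivator gene beyond the far end of the cluster, was at 209 and 233 CPM in the 2 groups (log2 fold change 0.16, adjusted p = 0.225 by edgeR).

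**Figure D1:**
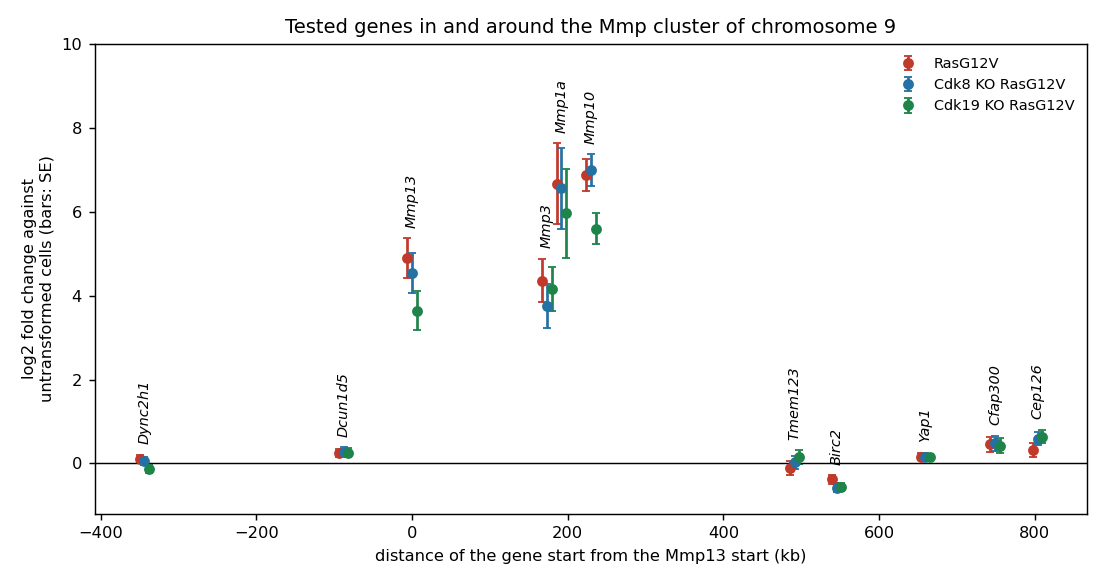
Log2 fold change against untransformed cells (vertical axis, bars are approximate SE) by the distance of the gene start from the Mmp13 start in kb, for the tested genes in and around the cluster and for the 3 transformed groups. The 4 tested cluster genes sit at 3.65 or above in every transformed group, Mmp1a as a fitted value from 0 untransformed counts, and the 7 tested flanking genes sit between -0.57 and 0.64.

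The membrane-type genes did not follow the cluster. Mmp14, a membrane-type collagenase that also activates pro-Mmp2 (chromosome 14, 54431612 to 54445364, plus strand), was at 92.7, 90.4 and 115 CPM in untransformed cells and at 94.8, 95.4 and 102 CPM in RasG12V. The groups overlapped, and the log2 fold change was -0.03 (SE 0.09, adjusted p = 0.873 by edgeR), the smallest SE among the members. Across all 12 libraries it ran from 90.2 to 115 CPM, with untransformed replicate 3 the highest.

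Mmp15, a second membrane-type enzyme gene (chromosome 8, 95352268 to 95375080, plus strand), was at 34.4, 29.2 and 16.8 CPM in untransformed cells and at 15.6, 14.5 and 11.2 CPM in RasG12V. The groups did not overlap, but untransformed replicate 3 lay just above the highest RasG12V library. The means were 26.8 ± 9.04 and 13.8 ± 2.32 CPM (SD, n = 3), and the log2 fold change was -0.96 (SE 0.21, adjusted p = 0.00593 by edgeR). It was -1.09 without both libraries that stood apart, and it missed the threshold with only the 2 groups in the fit (adjusted p = 0.0658 by edgeR).

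Mmp11, stromelysin-3, which is cleaved inside the cell by furin rather than secreted as a proenzyme (chromosome 10, 75923222 to 75936496, minus strand), showed the libraries that stood apart more than the groups. It was at 17.8, 16.5 and 35.2 CPM in untransformed cells and at 20.1, 17.4 and 34.5 CPM in RasG12V. In both groups replicate 3 was far above the others, at 2.06 and 1.84 times their mean. The log2 fold change was 0.06 (SE 0.29, adjusted p = 0.919 by edgeR), and 0.12 (adjusted p = 0.476 by edgeR) without both of these libraries.

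Timp1, the inhibitor (chromosome X, 20870166 to 20874735, plus strand), was at 47.8, 47.9 and 29.4 CPM in untransformed cells and at 48.4, 49.1 and 31.6 CPM in RasG12V. Replicate 3 was the lowest in both groups, at 0.614 and 0.648 times the mean of the other 2, the reverse of Mmp11. The log2 fold change was 0.04 (SE 0.19, adjusted p = 0.905 by edgeR), and 0.01 without both of these libraries. No difference in Timp1 was therefore detected while Mmp13, Mmp10 and Mmp3 rose.

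The gelatinase genes and matrilysin were not detectable as expressed genes at this depth. Mmp2 had 4 counts over the untransformed libraries, 3 over RasG12V, 3 over the Cdk8 knockout and 10 over the Cdk19 knockout, 8 of the last in replicate 1. Mmp9 had 2 counts in Cdk8 knockout replicate 3, 1 in Cdk19 knockout replicate 1 and 0 in the other 10 libraries. Mmp7 had 0 counts in each of the 12. A count of 0 over a group allows a level of up to 0.0307 to 0.0349 CPM, for counting error only.

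**Figure D2:**
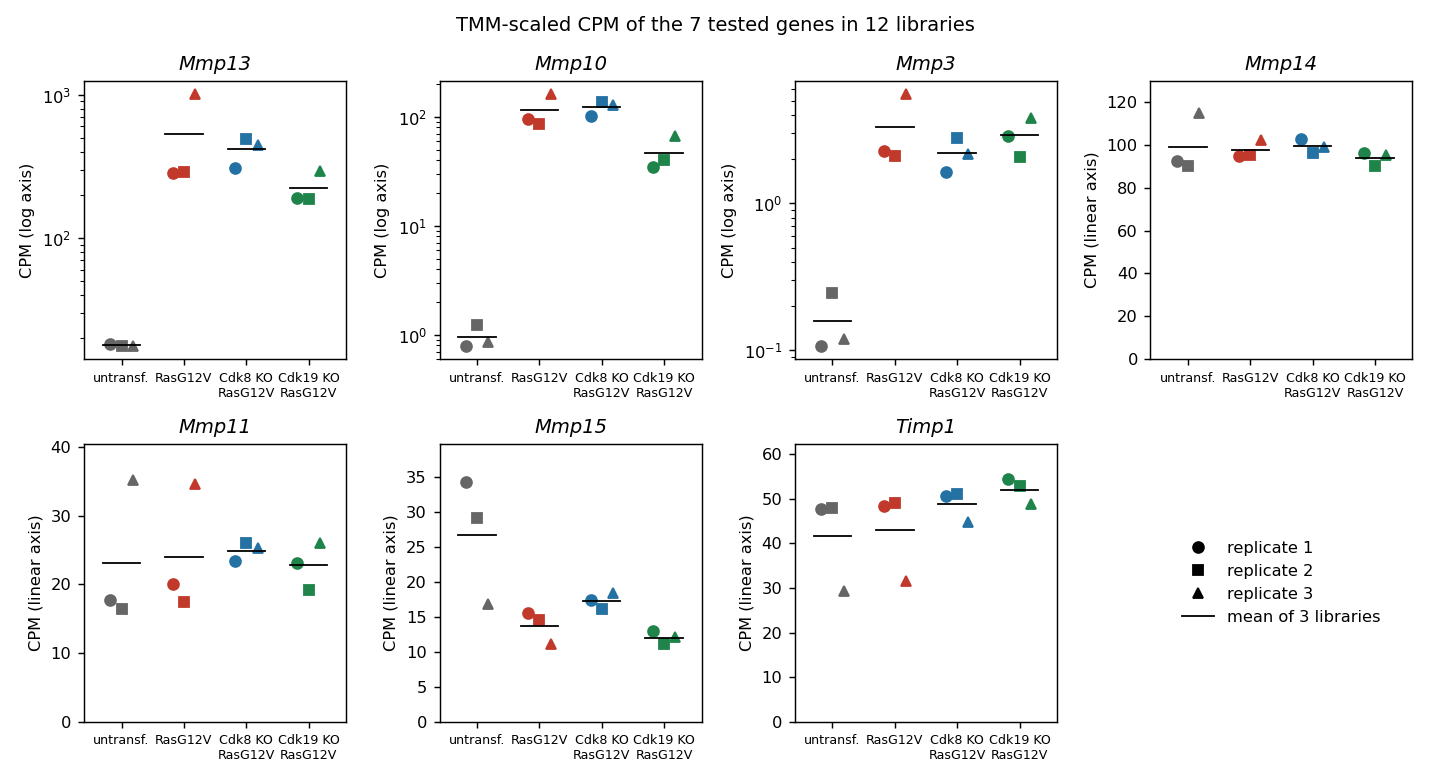
TMM-scaled CPM of the 7 tested genes (vertical axes, logarithmic for Mmp13, Mmp10 and Mmp3 and linear from 0 for the rest) in the 4 groups, with 1 symbol per replicate and a line at the mean of 3 libraries. Mmp13, Mmp10 and Mmp3 are lowest in the 3 untransformed libraries, and replicate 3 of the untransformed and RasG12V groups lies apart for Mmp11 and Timp1.

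The same genes were called when each knockout group was set against untransformed cells. These comparisons share the untransformed libraries with the one above and are given side by side for that reason. In the Cdk8 knockout with RasG12V, 3 of the 7 tested genes rose and 1 fell, where 12.3% of all genes rose, 12.2% fell and 24.4% were called in all, and the median log2 fold change was 0.23 beside -0.01 over all genes. In the Cdk19 knockout with RasG12V, 3 rose and 1 fell, where 12.4% of all genes rose, 12.9% fell and 25.3% were called in all, with a median of 0.32 beside 0.00.

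For Mmp13 the log2 fold change against untransformed cells was 4.54 (SE 0.47) in the Cdk8 knockout and 3.65 (SE 0.45) in the Cdk19 knockout, with adjusted p = 2.82e-05 and 0.000101 by edgeR. For Mmp10 it was 6.99 (SE 0.38) and 5.60 (SE 0.37), with adjusted p = 2.56e-07 and 1.09e-06. For Mmp3 it was 3.76 (SE 0.53) and 4.16 (SE 0.52), with adjusted p = 0.000271 and 0.000104. All 3 stayed called in each of the 19 alternative settings in both comparisons.

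For Mmp15 the log2 fold change was -0.63 (SE 0.21, adjusted p = 0.0478 by edgeR) in the Cdk8 knockout and -1.15 (SE 0.21, adjusted p = 0.00178 by edgeR) in the Cdk19 knockout. The Cdk8 knockout libraries overlapped the untransformed ones, since untransformed replicate 3 at 16.8 CPM lay below 2 of their 3 values, and this call held in 6 of 19 alternatives, with an adjusted p of up to 0.201. Without both libraries that stood apart it was -0.88 (adjusted p = 3.23e-07 by edgeR).

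Mmp14, Mmp11 and Timp1 were not called against untransformed cells in either knockout group. Timp1 had log2 fold changes of 0.23 (SE 0.19, adjusted p = 0.432 by edgeR) and 0.32 (SE 0.19, adjusted p = 0.25 by edgeR). Its 3 Cdk19 knockout libraries, at 54.4, 52.9 and 48.8 CPM, all lay above the 3 untransformed ones, as was the case for 43.8% of all genes in 1 direction or the other. Mmp11 was called higher only without both libraries that stood apart, by 0.53 in the Cdk8 knockout (adjusted p = 0.000792 by edgeR) and 0.41 in the Cdk19 knockout (adjusted p = 0.00685 by edgeR), where 42.2% and 43.6% of genes were called.

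**Figure D3:**
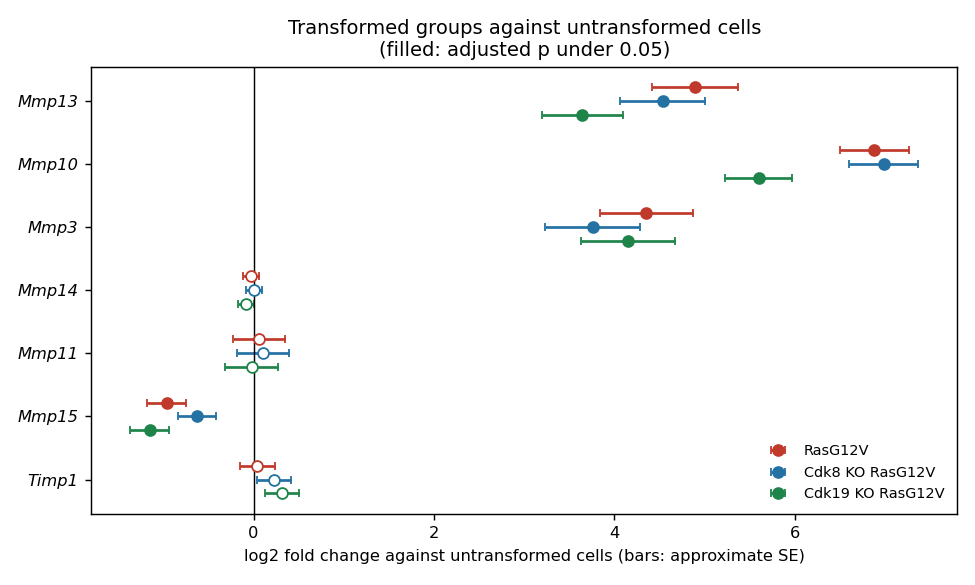
Log2 fold change against untransformed cells (horizontal axis) of the 7 tested genes in the 3 transformed groups, with approximate SE as bars and filled symbols for an adjusted p under 0.05. Mmp13, Mmp10 and Mmp3 lie between 3.65 and 6.99 and Mmp15 between -1.15 and -0.63, while Mmp14, Mmp11 and Timp1 lie between -0.08 and 0.32.

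Loss of Cdk8 moved none of the 7 genes past the threshold when set against RasG12V, where 0 of 14283 genes (0%) were called by edgeR, 871 (6.1%) had an unadjusted p under 0.05, and DESeq2 called 22 genes. Without both libraries that stood apart no member was called either, where 1.59% of genes were. None of the 7 had an unadjusted p under 0.05, and DESeq2 called none of them. Their median log2 fold change was 0.05, beside -0.01 over all genes. The Cdk8 knockout libraries held Mmp13 at 310, 487 and 449 CPM, between the lower pair of RasG12V libraries and RasG12V replicate 3. The log2 fold change was -0.35 (SE 0.40, adjusted p = 0.921 by edgeR), and 0.53 (adjusted p = 0.416 by edgeR) without RasG12V replicate 3, so its sign depended on that library.

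Mmp10 in the Cdk8 knockout was at 103, 138 and 128 CPM, a log2 difference of 0.10 from RasG12V (SE 0.26, adjusted p = 0.972 by edgeR). Mmp3 was at 1.63, 2.79 and 2.16 CPM, a difference of -0.60 (SE 0.38, adjusted p = 0.867 by edgeR) that was 0.03 without RasG12V replicate 3. Mmp15, at 17.4, 16.2 and 18.4 CPM, was the single gene of the 7 whose Cdk8 knockout libraries all lay above those of RasG12V (log2 difference 0.34, SE 0.21, adjusted p = 0.867 by edgeR), where 12.5% of all genes did not overlap. Mmp14 at 103, 96.1 and 99.0 CPM, Mmp11 at 23.4, 26.0 and 25.3 CPM and Timp1 at 50.6, 51.1 and 44.8 CPM differed from RasG12V by 0.03 to 0.19.

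Loss of Cdk19 also moved none of the 7 past the threshold against RasG12V, where 0.014% of all genes, or 2 genes, were called by edgeR and 1089 (7.62%) had an unadjusted p under 0.05. Without both libraries that stood apart the count of members stayed at 0, where 2.01% of genes were called. The median log2 fold change of the 7 was -0.19, beside -0.01 over all genes. Of the 7, Mmp10 and Mmp13 had an unadjusted p under 0.05. Mmp10 was at 34.3, 39.8 and 67.1 CPM in the Cdk19 knockout, each below the lowest RasG12V library at 85.2 CPM. It was the single gene of the 7 without overlap, where 14.5% of all genes did not overlap. Its mean of 47.1 ± 17.6 CPM (SD, n = 3) compared with 114 ± 42.6 CPM, a log2 fold change of -1.28 (SE 0.27, adjusted p = 0.223 by edgeR). DESeq2 called it (-1.28, adjusted p = 0.00312), and over the other alternatives the adjusted p by edgeR reached 0.845.

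Mmp13 in the Cdk19 knockout was at 192, 187 and 293 CPM. The highest of these lay just above the lower pair of RasG12V libraries, so the groups overlapped. The log2 fold change was -1.25 (SE 0.41, adjusted p = 0.5 by edgeR), and -0.36 (adjusted p = 0.677 by edgeR) without RasG12V replicate 3. Mmp3 was at 2.86, 2.07 and 3.78 CPM, a difference of -0.20 that was 0.42 without that library. Mmp15 was at 12.9, 11.1 and 12.1 CPM, Mmp14 at 96.3, 90.2 and 95.4 CPM, Mmp11 at 23.2, 19.1 and 26.1 CPM and Timp1 at 54.4, 52.9 and 48.8 CPM, and all 4 overlapped the RasG12V libraries.

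The 2 knockout groups were then compared with each other, which leaves the RasG12V libraries out of the difference. No member was called, where 0.105% of all genes, or 15 genes, were called by edgeR and 1027 (7.19%) had an unadjusted p under 0.05. The median log2 fold change, Cdk8 knockout minus Cdk19 knockout, was 0.13 beside 0.00 over all genes. Mmp10, Mmp13 and Mmp15 showed no overlap, each with all Cdk8 knockout libraries above all Cdk19 knockout libraries, where 20.7% of all genes did not overlap, and these 3 had an unadjusted p under 0.05.

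Mmp10 averaged 123 ± 18.1 CPM with Cdk8 lost and 47.1 ± 17.6 CPM with Cdk19 lost (SD, n = 3), a log2 difference of 1.38 (SE 0.27, adjusted p = 0.0967 by edgeR). It passed the threshold without RasG12V replicate 3, a library of neither group that enters the shared estimate of the spread (1.39, adjusted p = 0.0241 by edgeR), and without both libraries that stood apart (1.38, adjusted p = 0.038 by edgeR). It also passed with DESeq2 (adjusted p = 0.000267). In all it was called in 4 of the 19 alternatives, and the adjusted p by edgeR reached 0.507. The difference ran from 1.21 to 1.73 over the 19. Mmp13 averaged 416 ± 93.0 and 224 ± 60.1 CPM, a difference of 0.89 (SE 0.40, adjusted p = 0.685 by edgeR). Mmp15 averaged 17.3 ± 1.14 and 12.1 ± 0.908 CPM, a difference of 0.53 (SE 0.21, adjusted p = 0.636 by edgeR). Mmp15 passed in 2 of the 19 alternatives. These were with only these 2 groups in the fit (adjusted p = 0.00371 by edgeR) and without both libraries that stood apart (adjusted p = 0.00165 by edgeR, where 5.32% of genes were called). Mmp3 differed by -0.40 (SE 0.38, adjusted p = 0.948 by edgeR), with overlap.

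**Figure D4:**
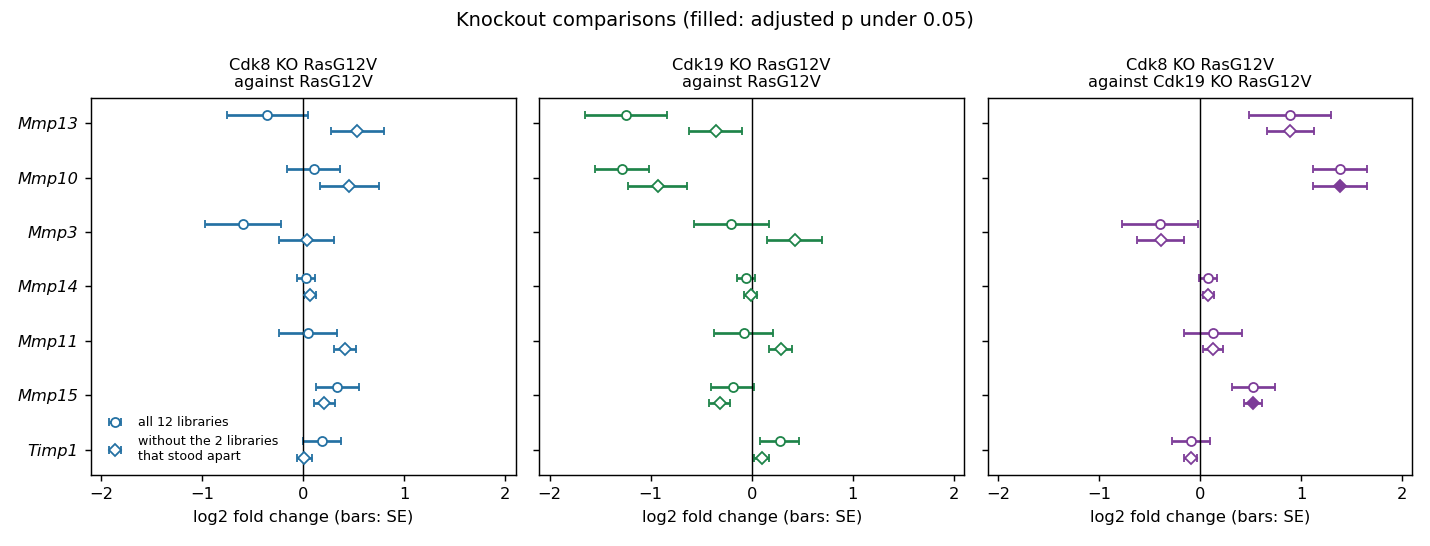
Log2 fold change (horizontal axes, bars are approximate SE) of the 7 tested genes in the 3 knockout comparisons, with circles for all 12 libraries and diamonds without the 2 libraries that stood apart, filled where the adjusted p was under 0.05. Mmp13 and Mmp3 move to the right in the first 2 panels when those libraries are left out, and Mmp10 and Mmp15 are filled only as diamonds in the third.

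Levels of different genes were compared per kb of exon. In untransformed cells the order of CPM per kb was Timp1 (47.0), Mmp14 (16.7), Mmp11 (8.33), Mmp13 (6.69), Mmp15 (4.96), Mmp10 (0.558) and Mmp3 (0.0876), and only the neighbours Mmp11 and Mmp13 overlapped across libraries. In RasG12V, Mmp13 came first at 199 CPM per kb and Mmp10 second at 66.5, the latter overlapping Timp1 at 48.4. Mmp14 at 16.4, Mmp11 at 8.65, Mmp15 at 2.55 and Mmp3 at 1.84 CPM per kb followed, the last pair overlapping. In the Cdk8 knockout the order was the same as in RasG12V with no overlap between neighbours, led by Mmp13 at 155, Mmp10 at 71.4 and Timp1 at 55.0 CPM per kb. In the Cdk19 knockout Timp1 at 58.6 CPM per kb lay above Mmp10 at 27.3, behind Mmp13 at 83.8.

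The make-up of the Mmp transcripts among the 10 genes described here was read from the same levels. This leaves out Mmp1a, Mmp17, Mmp19, Mmp24 and Mmp28, which were tested but are not among the 10. The sum also holds the untested members Mmp2, Mmp7 and Mmp9, none above 0.0837 CPM per kb in any library. Of the summed CPM per kb, Mmp14 held 43.6% to 45.6% in the untransformed libraries and 3.37% to 8.68% in RasG12V. Mmp13 held 15.6% to 19.6% in the untransformed libraries and 56.5% to 74.6% in RasG12V. In the knockout groups Mmp13 held 56.5% to 62.3% with Cdk8 lost and 59.1% to 61.5% with Cdk19 lost, and Mmp10 held 27.2% to 29.0% and 16.6% to 21.8%.

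The ratio of this summed Mmp level to Timp1, both in CPM per kb, was 0.663, 0.630 and 1.27 in the untransformed libraries. It was 3.48, 3.34 and 14.3 in RasG12V, 3.61, 5.08 and 5.40 in the Cdk8 knockout and 1.96, 1.99 and 3.25 in the Cdk19 knockout. Every transformed library lay above every untransformed one, and each replicate 3 was the highest of its group. These ratios of transcript levels were chosen after the values of the members were seen and are given without a test.

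**Figure D5:**
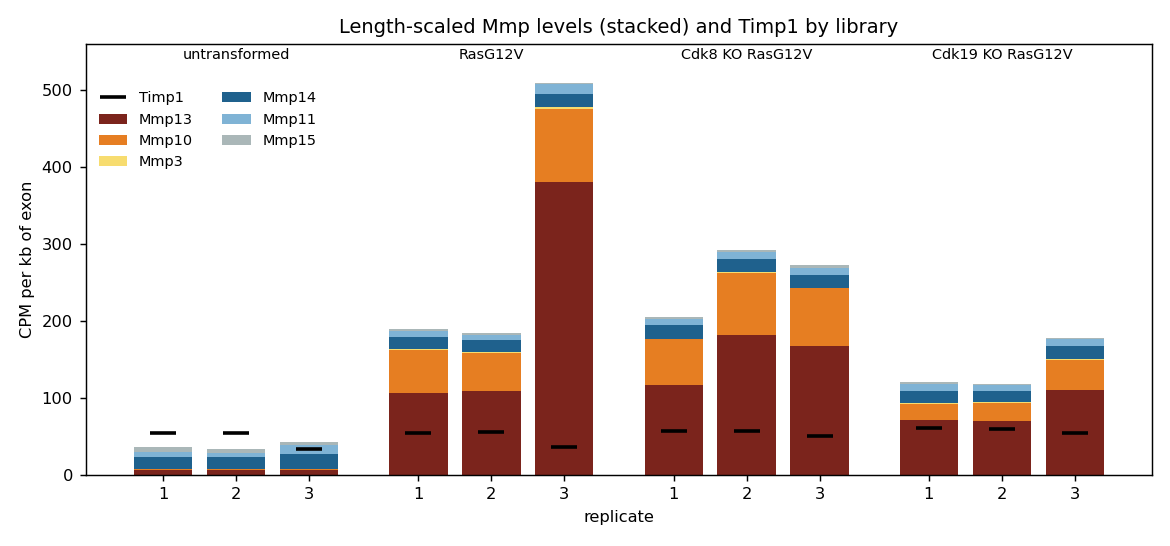
Stacked CPM per kb of exon (vertical axis) of Mmp13, Mmp10, Mmp3, Mmp14, Mmp11 and Mmp15 in each of the 12 libraries, with a black line at the Timp1 level on the same scale. In untransformed replicates 1 and 2 Timp1 lies above the whole Mmp stack, and in every transformed library it lies below the stack. Timp2, whose mean per kb was above that of Timp1 in every group, is not drawn.

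Other genes of the same system were read as lists. The shares to hold beside the counts are those over all tested genes: in RasG12V against untransformed cells 11.9% rose and 11.5% fell, in the Cdk8 knockout 12.3% and 12.2%, and in the Cdk19 knockout 12.4% and 12.9%. The medians over all genes were 0.00, -0.01 and 0.00. Of 18 other Mmp and inhibitor genes, 8 were tested in RasG12V against untransformed cells, 1 rose and 4 fell (23.4% of all genes were called), with a median log2 fold change of -0.50, and the counts were the same without both libraries that stood apart, where 40% of all genes were called. Besides Mmp1a, which rose, Timp2, an inhibitor that also takes part in pro-Mmp2 activation, fell from 638 to 453 CPM (-0.49 on the log2 scale, SE 0.08, adjusted p = 0.000727 by edgeR). The epilysin gene Mmp28 fell from 14.3 to 2.42 CPM (-2.52, adjusted p = 0.00173 by edgeR), Mmp19 from 3.39 to 0.635 CPM (-2.35, adjusted p = 0.00636 by edgeR) and the membrane-type gene Mmp24 from 2.80 to 1.42 CPM (-0.99, adjusted p = 0.0216 by edgeR). RasG12V replicate 3 held 4.80 and 4.25 times the mean of the other 2 for Mmp28 and Mmp19. Without that library their log2 fold changes were -3.73 (adjusted p = 3.65e-08 by edgeR) and -3.43 (adjusted p = 0.000126 by edgeR). The inhibitor gene Timp3 was at 71.4 and 50.2 CPM and was not called (-0.51, adjusted p = 0.209 by edgeR). Untransformed replicate 3 held 114 CPM of Timp3 against 47.3 and 53.2 CPM in its group. The log2 fold change of Timp3 was 0.0011 without that library and -0.22 without both libraries that stood apart. Against untransformed cells the same 1 and 4 genes were called in each knockout group, with medians of -0.60 in both, where 24.4% and 25.3% of all genes were called.

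Of 26 Adam and Adamts protease genes, 16 were tested, 7 rose and 6 fell in RasG12V (23.4% of all genes were called), with a median of 0.51 beside 0.00 over all genes. Leaving out both libraries that stood apart, 8 rose and 6 fell, where 40% of all genes were called. The sheddase gene Adam9 rose from 333 to 478 CPM (log2 fold change 0.52) and Adam15 from 35.7 to 53.3 CPM (0.58). Adam19 had 1 count over the untransformed libraries and 89 over the RasG12V libraries. Adam19, Adamts4, Adamts8 and Adamts9 passed the filter on low counts through the transformed groups, where they are higher. Adamts1 passed it through the untransformed group. The counts and the median of this list therefore rest in part on the filter. The aggrecanase-family gene Adamts15 fell from 54.2 to 2.56 CPM (-4.40, adjusted p = 6.25e-05 by edgeR), Adamts1 from 3.06 to 0.213 CPM (-3.88) and Adam23 by 1.60 on the log2 scale, to 4.96 CPM. In the Cdk8 knockout 7 of the 16 rose and 4 fell against untransformed cells, and in the Cdk19 knockout 7 rose and 5 fell, where 24.4% and 25.3% of all genes were called.

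Of 22 genes for the activation, binding and clearance of these proteases, 17 were tested, 3 rose and 4 fell in RasG12V (23.4% of all genes were called), with a median of -0.05. With the 2 libraries that stood apart left out, 5 rose and 8 fell, where 40% of all genes were called. Plat, tissue plasminogen activator, which makes the plasmin that can activate proenzymes, rose from 143 to 377 CPM (1.41 on the log2 scale, SE 0.12, adjusted p = 4.49e-06 by edgeR). The plasminogen gene Plg, also in this list, had 0 counts in all 12 libraries. Cd44, a hyaluronan receptor that can hold proteases at the cell surface, rose from 457 to 853 CPM (0.90). Lrp1, the endocytic receptor that clears several Mmp proteins, fell from 13.5 to 5.92 CPM (-1.18), the proprotein convertase gene Pcsk5 from 1.30 to 0.394 CPM (-1.73) and the serpin gene Serpinb5 by 1.10 on the log2 scale. Serpinb5 in RasG12V was at 2.99 and 3.35 CPM in replicates 1 and 2 and higher in replicate 3. Its log2 fold change was -1.75 (adjusted p = 9.54e-05 by edgeR) without RasG12V replicate 3, and its call was lost without untransformed replicate 3 (-1.13, adjusted p = 0.0546 by edgeR). In the knockout groups against untransformed cells 4 rose and 1 fell with Cdk8 lost, and 3 rose and 3 fell with Cdk19 lost, where 24.4% and 25.3% of all genes were called. With these 2 libraries left out the counts were 7 and 4, and 4 and 6, where 42.2% and 43.6% of genes were called.

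Of 25 genes of matrix proteins and other substrates, 19 were tested, and 5 rose and 5 fell in RasG12V (23.4% of all genes were called), with a median of -0.13. Leaving out the pair that stood apart, 5 rose and 7 fell, where 40% of all genes were called. The laminin chain genes went both ways: Lamb1 rose from 181 to 411 CPM (1.18), Lamb3 fell from 32.2 to 4.88 CPM (-2.72, adjusted p = 5.63e-08 by edgeR) and Lamc1 fell from 180 to 122 CPM (-0.56). Tnc, tenascin C, rose from 0.197 to 4.54 CPM (4.52) and passed the filter on low counts through the transformed groups, where it is high. Col4a1, a basement membrane collagen gene, rose from 151 CPM by 0.40 on the log2 scale. Sparc, a collagen-binding matricellular protein gene, fell from 611 to 287 CPM (-1.09). The fibrillar collagen genes Col1a2 and Col3a1, whose products Mmp13 can cut, had 1 count each over all 12 libraries. Of the other fibrillar collagen genes in the list, Col1a1 had 70 counts and Col5a2 at most 3 in a group. Col5a1 averaged 1.07, 1.64, 1.40 and 3.16 CPM in the untransformed, RasG12V, Cdk8 knockout and Cdk19 knockout groups. These collagen genes are named after their values were seen. Against untransformed cells 5 rose and 5 fell in the Cdk8 knockout and 7 rose and 6 fell in the Cdk19 knockout, where 24.4% and 25.3% of all genes were called.

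Of 20 genes of transcription factors known at Mmp promoters, 19 were tested, and 8 rose and 4 fell in RasG12V (23.4% of all genes were called), with a median of 0.19. The counts were the same without both libraries that stood apart, where 40% of all genes were called. Among the AP-1 genes, Fosb rose from 0.742 to 9.75 CPM (3.71 on the log2 scale, SE 0.31, adjusted p = 4.36e-06 by edgeR), Fosl2 from 77.1 to 128 CPM (0.73) and Fosl1 from 88.4 to 127 CPM (0.52). The AP-1 gene Fos fell from 4.89 to 2.77 CPM (-0.81, adjusted p = 0.0447 by edgeR), while Junb at 72.8 and 55.4 CPM, Jund at 29.3 and 25.3 CPM and Jun at 21.8 and 29.6 CPM were not called; these 4 genes and Ets2 are named after their values were seen. The ETS family genes Etv5 and Etv4 rose from 11.2 to 21.5 CPM (0.94) and from 37.4 to 70.5 CPM (0.91), Elf3 fell to 4.73 CPM (-1.66), and Ets2 from 385 to 265 CPM (-0.54, adjusted p = 0.00495 by edgeR). Against untransformed cells 7 rose and 5 fell in the Cdk8 knockout and 8 rose and 4 fell in the Cdk19 knockout, where 24.4% and 25.3% of all genes were called.

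In all 5 lists none was called in either knockout against RasG12V or between the knockouts, where 0%, 0.014% and 0.105% of all genes were called. Without both libraries that stood apart, 0 to 3 genes of a list rose and 0 to 1 fell in the Cdk8 knockout against RasG12V, and 0 to 4 rose and 0 to 3 fell in the Cdk19 knockout. Between the knockouts 0 to 5 of a list were higher and 0 to 1 lower in the Cdk8 knockout. Over all genes 1.59%, 2.01% and 5.32% were called in this setting.

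The genes whose log2 CPM most resembled that of each member over the 12 libraries, among protein-coding genes reaching a group mean of 5 CPM, are given as a description. The 12 points fall into untransformed and transformed libraries and share depth and the 2 libraries that stood apart. Mmp10 was most like Scg2 (Pearson r = 0.994), Flt4 (0.993) and Synpr (0.991). Mmp13 was most like Wnt5a (0.990), Csgalnact1 and Arhgap6 (0.989 each), and Wnt5a, a secreted Wnt ligand gene, had means of 4.13, 34.8, 32.8 and 19.4 CPM in the untransformed, RasG12V, Cdk8 knockout and Cdk19 knockout groups. Mmp3 was most like Tmem179 (0.986), Mrc1 (0.977) and Etv5 (0.976), Mmp15 like Thsd7a (0.969), Clptm1 (0.965) and Myo18a (0.963), and Timp1 like Prelid3b (0.980), Tbl3 (0.976) and Eif3b (0.969). Mmp11 was most like Plscr3 (0.963), Vps35l (0.953) and Fam213a (0.946), and Mmp14 like Fads1 (0.896), Stau2 (0.895) and Adgrg6 (0.894). Within the 9 transformed libraries r was 0.877 between Mmp10 and Mmp13, 0.218 between Mmp10 and Mmp3 and -0.879 between Mmp13 and Timp1. RasG12V replicate 3 held the highest Mmp13 (1016 CPM) and the lowest Timp1 (31.6 CPM) of these libraries, and r without it was not computed. With Timp1, r was also -0.711 for Mmp11, -0.695 for Mmp3, -0.643 for Mmp10 and -0.564 for Mmp14, and it was 0.264 for Mmp15.

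The labelled cell type was checked with marker lists. Of 12 hepatic progenitor and epithelial markers, 11 reached 1 CPM in untransformed cells and 10 in each transformed group, with Krt8, Krt18, Krt19 and Hnf4a among the highest; Epcam was at 0.211 CPM or less in every library, and Alb was below 1 CPM in the transformed groups. Of 11 stellate cell and fibroblast markers, which would mark a usual source of Mmp and Timp1 transcripts in liver, 0 reached 1 CPM in untransformed cells and 1, Pdgfra, in each transformed group. Their summed level was 0.710 to 1.42 CPM in untransformed libraries, 2.08 to 2.45 in RasG12V, 1.98 to 2.43 in the Cdk8 knockout and 1.49 to 2.01 in the Cdk19 knockout, and Lum was at 0 in all. Of 9 macrophage, neutrophil and leukocyte markers 1, Cd68, reached 1 CPM, with summed levels of 4.54 to 8.38 CPM over the 12 libraries and Adgre1 at 0 in all. Outside these lists, Mrc1, the mannose receptor gene of macrophages and some endothelia, averaged 79.0 CPM in untransformed cells and 220, 191 and 184 CPM in the RasG12V, Cdk8 knockout and Cdk19 knockout groups. Flt4, a receptor gene of lymphatic endothelium, averaged 10.2 CPM and 34.5, 33.6 and 28.6 CPM in the same order, and both are named here after their values were seen. Of 5 endothelial markers none reached 1 CPM in any group and Kdr was at 0 in all. Of 4 mesothelial markers Msln was high in every group, at 1131 to 1465 CPM on average, and Wt1 was at 0.104 CPM or less. Upk3b was at 3.29 CPM in untransformed cells and 0.143 in RasG12V. Lrrn4 went the other way, averaging 0.0539 CPM in untransformed cells and 0.271, 0.464 and 0.797 CPM in the transformed groups, ordered as for Mrc1. The part of these genes in the Mmp and Timp1 levels was not tested. Fewer cells of a kind and less RNA per cell cannot be told apart in bulk samples.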

How the data were processed

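RNA of 12 libraries of BMEL cells in 4 groups of 3 was sequenced from rRNA-depleted total RNA, per the labels. The authors deposited 1 table of raw read counts per gene and library, with an unstranded and 2 strand columns. The submitters' processing notes name FastQC, STAR 2.6.0a and the build GRCm38.p6. Which annotation release served for counting is not given in the sources used here. Column 4, the reverse strand, was used because it held 24.7 to 28.9 times the reads of the opposite strand. Library sizes leave out the rows that name no gene, and 65.2% to 67.0% of reads lay in genes. Of 54146 identifiers, 54079 matched GENCODE M21, which gave symbols, coordinates and exon lengths.

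Counts were fitted with edgeR 4.0.16 (R 4.3.3): filterByExpr, TMM scaling, robust quasi-likelihood fit of all 12 libraries by group without a block, and Benjamini-Hochberg adjustment over 14283 genes. The SE is the log2 fold change over the square root of F and is approximate. Each of 6 comparisons was refitted in 19 alternatives (RLE factors, no filter, DESeq2 1.42.0, unstranded counts, replicate block, 2 groups only, each library left out, both libraries that stood apart left out). Promoters came from RefSeq, which had entries for 8 of the 10 members, not for Mmp2 and Mmp9. The members, the 5 lists and the markers were chosen with earlier results of these data known. All members are named, with the 3 genes most like each and, from each list, up to 6 called genes by adjusted p, of which 1 is not reported here.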

Additional observations from a re-analysis of the deposited data

Results flagged for a closer look

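Mmp15 lay on opposite sides of the RasG12V mean in the 2 knockout groups. The 3 Cdk8 knockout libraries, at 17.4, 16.2 and 18.4 CPM, were all above the RasG12V mean of 13.8 CPM, and the 3 Cdk19 knockout libraries, at 12.9, 11.1 and 12.1 CPM, were all below it. The knockouts differed by 0.5253 on the log2 scale, 0.53 when rounded, and the opposite direction itself was not tested. Set directly against each other, the knockout groups gave an adjusted p of 0.636 by edgeR, and over the 19 alternatives that p ran from 0.00165 to 1.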

How the results depend on the processing

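Of 798 values of the 7 tested genes under alternatives, 740 kept direction and side of the threshold, 14 lost a call, 8 gained one with the same direction, and 36 changed sign. None of the 36 was called with all 12 libraries, and 1 of them, Mmp11 in the Cdk19 knockout against untransformed cells, was called after the change (0.41 without both libraries that stood apart, adjusted p = 0.00685 by edgeR). Mmp13, Mmp10 and Mmp3 stayed called against untransformed cells throughout, and no alternative called a member between the Cdk8 knockout and RasG12V. Between samples of the same replicate number, deviations from the group means correlated by -0.140 to 0.252, and no comparison had all 3 above 0.1. With 3 libraries per group, and both libraries that stood apart numbered replicate 3, these values cannot tell whether replicate numbers pair samples.

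Genes called, in the order RasG12V, Cdk8 knockout and Cdk19 knockout against untransformed, were 3340, 3490 and 3608, and 5799, 6116 and 6314 without both libraries that stood apart; with only the 2 groups compared the first was 1574. Against RasG12V, 0 genes were called with Cdk8 lost and 2 with Cdk19 lost: 22 and 66 with DESeq2, 16 and 84 without the filter, 231 and 291 without both libraries. With the replicate block 1 gene was called with Cdk8 lost, and with only 2 groups 1 with Cdk19 lost. Between the knockouts 15 were called: 109 with DESeq2, 108 without the filter, 496 with only 2 groups, 771 without both libraries and 17 with the replicate block. Leaving out 1 library gave 2359 to 4808, 2529 to 4880 and 2649 to 5094 genes against untransformed, 0 to 3 and 0 to 21 against RasG12V, and 0 to 133 between the knockouts. The cause was not tested. Members called went from 0 to 1 (Mmp10) with DESeq2 in the Cdk19 knockout against RasG12V. Between the knockouts they went from 0 to 1 with DESeq2 and the replicate block (Mmp10; 1.44, adjusted p = 0.0227 by edgeR), to 1 (Mmp15) with only 2 groups, to 2 without both libraries and to 0 to 1 when leaving out 1 library.

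Sign changes against untransformed cells without both libraries were 0.0403 for Mmp14 in RasG12V, and 0.41 for Mmp11 and 0.0287 for Mmp14 in the Cdk19 knockout, where Mmp11 was 0.0407 with the replicate block. Against RasG12V they were 0.53 for Mmp13 and 0.0327 for Mmp3 in the Cdk8 knockout, and 0.42 for Mmp3 and 0.29 for Mmp11 in the Cdk19 knockout. With 1 library left out, values in RasG12V against untransformed ran from -0.29 to 0.50 for Mmp11, -0.0959 to 0.0909 for Mmp14 and -0.16 to 0.24 for Timp1. In the Cdk8 knockout against RasG12V they ran from -0.83 to 0.0277 for Mmp3, -0.0645 to 0.46 for Mmp10, -0.13 to 0.41 for Mmp11 and -0.64 to 0.53 for Mmp13. In the Cdk19 knockout against RasG12V they ran from -0.44 to 0.42 for Mmp3 and -0.26 to 0.28 for Mmp11. Against untransformed cells they ran from -0.0957 to 0.54 for Mmp11 and -0.0687 to 0.12 for Mmp14 in the Cdk8 knockout, and from -0.22 to 0.42 for Mmp11 and -0.15 to 0.0375 for Mmp14 in the Cdk19 knockout. Depth limits Mmp2, Mmp7 and Mmp9, with at most 20 counts in all libraries, and Mmp3 in untransformed cells.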
